A study of Mus musculus with 24 samples.

Results

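The vascular endothelial growth factor (VEGF) genes described here are the ligands Vegfa, Vegfb, Vegfc and Vegfd, the receptors Flt1 and Flt4, and the co-receptor Nrp1, in brown and white mouse fat cells grown in primary culture. Members were chosen by gene name, and every array probe set whose single annotated symbol, old or current, is that of a member was taken. All 7 genes were on the array, with 10 of its 12488 probe sets, among 8252 genes with a single symbol. Of the 10 probe sets, 8 passed the filter on low signal and were tested, at least 1 for each gene, among 8397 probe sets and 6281 genes tested. The second probe sets of Flt1 and Flt4 did not pass.

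The study compared pre- and mature adipocytes of each fat type on Affymetrix Murine Genome U74Av2 arrays, with 24 arrays in 4 groups. Brown fat cells were taken 4 days after isolation, when the labels call them non-differentiated (n = 5 arrays), or after 7 days, when they are called differentiated (n = 5). White fat cells were taken on the same days under the same descriptions, with n = 8 arrays at day 4 and n = 6 at day 7. No other treatment is named, and strain, age and the makeup of the cultures are not given in the sources used here. Whether the arrays of a group are separate animals or cultures is not stated, so p-values measure only the spread among them, which may be technical. Brown arrays carry lower numbers than all white arrays and the meaning of the numbers is not stated, so handling and fat type cannot be told apart. White day 4 arrays 45 and 51 were known from earlier results of these data to stand apart from their group. Values without both are given where the call or the sign of a member changed.

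VEGF-A, acting mainly on the receptor VEGFR2 (gene Kdr), drives the growth and leakiness of blood vessels, and its gene is induced by low oxygen. VEGFR1, the product of Flt1, binds VEGF-A and VEGF-B tightly with little kinase output and also occurs as a soluble trap. VEGF-C and VEGF-D act through VEGFR3, the product of Flt4, on lymphatic vessels, and neuropilin-1 (Nrp1) presents VEGF to these receptors and also binds class 3 semaphorins. In fat, vessels grow with the tissue, and adipocytes and stromal cells are known sources of the ligands, whereas the receptors are known mainly from endothelial cells.

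The sequences just upstream of the gene starts are shown for the members that differed between brown and white cells on both days (Vegfd and Nrp1) and for those that rose in brown cells (Vegfa and Vegfc). Each is the 250 bases before a RefSeq start, build GRCm38.p6, 5′ to 3′ on the gene's strand, with capitals marking matches to the motifs named after them. Vegfd lies at chrX:164373272-164373521 (plus strand), Nrp1 at chr8:128358823-128359072 (plus), Vegfa at chr17:46032378-46032627 (minus, the first of its 2 starts in the table) and Vegfc at chr8:54077282-54077531 (plus).
Vegfd: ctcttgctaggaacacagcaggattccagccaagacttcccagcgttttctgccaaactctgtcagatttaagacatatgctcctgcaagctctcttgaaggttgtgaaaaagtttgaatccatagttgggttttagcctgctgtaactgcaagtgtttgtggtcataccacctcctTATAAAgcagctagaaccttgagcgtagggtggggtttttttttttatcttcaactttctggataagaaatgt
Nrp1: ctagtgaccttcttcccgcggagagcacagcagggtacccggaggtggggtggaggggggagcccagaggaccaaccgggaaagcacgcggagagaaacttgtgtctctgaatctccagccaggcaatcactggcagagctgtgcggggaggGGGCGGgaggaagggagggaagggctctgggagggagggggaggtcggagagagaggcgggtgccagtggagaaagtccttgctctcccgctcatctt
Vegfa: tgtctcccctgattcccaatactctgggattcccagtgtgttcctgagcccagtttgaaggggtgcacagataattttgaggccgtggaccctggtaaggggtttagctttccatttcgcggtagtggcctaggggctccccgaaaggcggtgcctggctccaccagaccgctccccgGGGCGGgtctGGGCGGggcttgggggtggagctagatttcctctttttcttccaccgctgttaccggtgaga
Vegfc: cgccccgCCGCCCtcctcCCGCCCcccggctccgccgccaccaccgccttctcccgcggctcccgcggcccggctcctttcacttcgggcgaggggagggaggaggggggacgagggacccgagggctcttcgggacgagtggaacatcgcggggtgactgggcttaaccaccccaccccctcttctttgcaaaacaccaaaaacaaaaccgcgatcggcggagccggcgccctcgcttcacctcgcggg
Of these, the Vegfd window was the poorest in G and C, at 42.4%, with 2 CpG dinucleotides, against a median of 52.4% over 32851 promoter windows. It held a TATA match, TATAAA, from -73 to -68 before the start and no GC box. The Nrp1 window had 64.4% G and C and 1 GC box, GGGCGG. Vegfa had 59.2% and 2 GC boxes, and Vegfc 71.6%, 2 GC boxes and 30 CpG dinucleotides. Both strands were searched. Over all windows, 32.7% held a GC box, 12.4% TATAAA, 16.6% the hypoxia factor core ACGTG and 6.75% the AP-1 motif TGANTCA. The core ACGTG was found in 1 of the 8 windows of the 7 members, that of the second Vegfa start, which lies downstream of the first. The Vegfa window printed here did not hold it. The AP-1 motif was in none of the 8 windows. All motif matches named here are matches of letters and were not tested as binding sites.

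Signal here is the MAS5 intensity after each array was scaled to a trimmed mean of 150, and differences are on the log2 scale, ± the standard error of the limma fit, with Benjamini-Hochberg adjusted p-values over all 8397 probe sets. "Passed" means an adjusted p under 0.05, and values under the floor, a signal of 8.21, were set to it for the tests only. Probe sets differ in binding, so no level is set against that of another probe set. In brown cells, 2 of the 7 genes passed between day 4 and day 7, Vegfa and Vegfc, both higher at day 7, where 12.1% of all probe sets passed (6% higher, 6.05% lower). In white cells 1 passed, Flt1, higher at day 7, against 19% of all probe sets (8.36% higher, 10.6% lower). At day 4, 2 genes were lower in brown than in white cells, Vegfd and Nrp1, against 23% (10.8% higher, 12.2% lower). At day 7, 4 genes passed, with Flt4 higher and Vegfd, Nrp1 and Flt1 lower in brown cells, against 25.2% (12.8% higher, 12.3% lower). The day 7 arrays did not overlap the day 4 arrays for 1 of the 8 member probe sets in brown cells and 1 in white cells, against 9.73% and 4.79% of all probe sets. Brown and white arrays did not overlap for 2 at day 4 and 4 at day 7, against 7.29% and 18.1%. The comparisons share groups of arrays, and Flt1 passed the filter mainly through the white day 7 arrays, where it was high, so these counts support nothing beyond the single results.

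The median log2 difference of the 8 probe sets from day 4 to day 7 was 0.34 in brown and 0.09 in white cells, against 0.01 and 0.01 over all tested. For brown minus white it was -0.45 at day 4 and -0.21 at day 7, against 0.01 and 0.00.

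**Figure D1:**
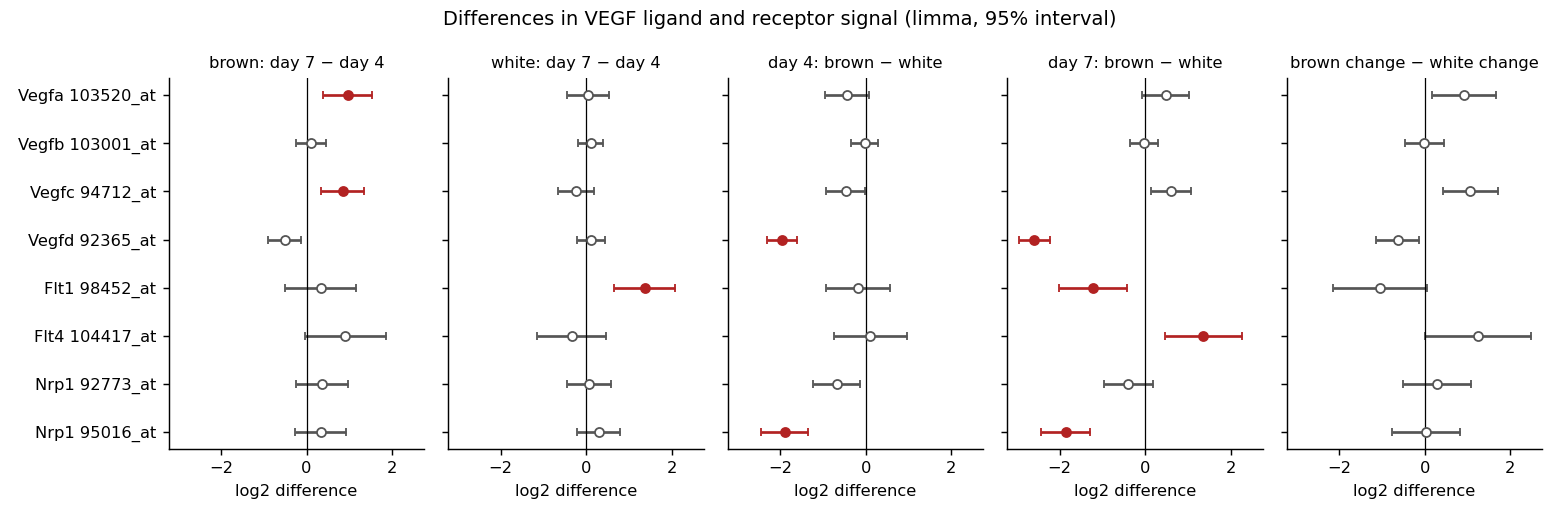
Log2 differences (points) with 95% intervals for the 8 tested probe sets in the 5 comparisons, with filled red points where the adjusted p was under 0.05. The differences farthest from 0 are those of Vegfd, -1.95 at day 4 and -2.59 at day 7, and of Nrp1 probe set 95016_at, -1.90 and -1.86, for brown minus white.

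Vegfa, the gene of the main blood vessel growth factor, was measured by probe set 103520_at. Signals of the brown day 4 arrays 05, 06, 09, 10 and 19 were 78.5, 58.2, 63.9, 70.0 and 39.6. Those of the brown day 7 arrays 07, 08, 11, 12 and 22 were 139, 142, 109, 154 and 67.9. All but 1 of the day 7 arrays lay above every day 4 array, and array 22 fell within their range. White day 4 arrays ran from 44.3 to 125 with a median of 92.5, and white day 7 arrays from 59.1 to 118 with a median of 83.7, so that the white groups overlapped each other and both brown groups. In brown cells Vegfa rose by 0.96 ± 0.28, or 1.95-fold (adjusted p = 0.0231). The call was lost without brown day 4 array 19 (0.81, adjusted p = 0.0789) and without brown day 7 array 07 (0.0603), 08 (0.0663) or 12 (0.0724). In white cells the difference was 0.04 ± 0.24 (95% interval -0.45 to 0.53).

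Within 3 runs of array numbers, day 7 minus day 4 for Vegfa was 1.06, 0.95 and 0.78 in brown cells and -0.47, -0.15 and -0.07 in white cells. The numbers are adjacent in each run but the third brown run. That run is arrays 19 and 22, which are not adjacent, so its value rests on 1 array per day. The test of the brown change minus the white change gave 0.92 ± 0.37, with an adjusted p of 0.465 by limma (0.0190 unadjusted), so a different response of the fat types did not pass. Brown minus white was -0.44 ± 0.25 at day 4 (adjusted p = 0.226) and 0.48 ± 0.27 at day 7 (0.202), and the second passed with array weights (0.64, 0.0140). White day 4 arrays 45 and 51 held the lowest Vegfa signals of that group, 48.9 and 44.3, against 67.5 to 125 on the other 6. Without both, brown was lower at day 4 by a value that passed, -0.71 (adjusted p = 0.0183).

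Vegfb, whose product binds VEGFR1 and is known from fat and muscle, gave close values in all 4 groups (probe set 103001_at). Brown day 4 arrays 05, 06, 09, 10 and 19 read 450, 330, 290, 302 and 523, and brown day 7 arrays 07, 08, 11, 12 and 22 read 383, 420, 382, 418 and 373. White arrays ran from 281 to 550 (median 384) at day 4 and from 298 to 471 (median 421) at day 7. Every pair of groups overlapped. No comparison passed, and the differences were 0.10 ± 0.17 in brown and 0.11 ± 0.14 in white cells, and -0.02 ± 0.15 and -0.03 ± 0.16 for brown minus white at day 4 and day 7. The 95% interval of the brown change ran from -0.25 to 0.45.

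Vegfc, a ligand of the lymphatic receptor VEGFR3, was measured by probe set 94712_at. Its signals on brown day 4 arrays 05, 06, 09, 10 and 19 were 47.1, 48.3, 35.3, 41.2 and 44.8. On brown day 7 arrays 07, 08, 11, 12 and 22 they were 76.3, 49.1, 91.0, 82.6 and 98.4, and no day 7 array overlapped day 4, although array 08 lay just above it. White arrays ran from 46.3 to 86.2 (median 53.6) at day 4 and from 34.6 to 80.2 (median 52.2) at day 7, with wide overlap. Vegfc rose in brown cells by 0.84 ± 0.24, or 1.80-fold (adjusted p = 0.020), a call lost without brown day 4 array 09 (0.77, adjusted p = 0.0609) or brown day 7 array 12 (0.82, 0.0503). In white cells the difference was -0.23 ± 0.21 (adjusted p = 0.482).

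The 3 brown runs gave Vegfc changes of 0.36, 1.19 and 1.13, all upward, the last from arrays 19 and 22 alone. Brown minus white was -0.47 ± 0.22 at day 4 (adjusted p = 0.124) and 0.60 ± 0.23 at day 7 (0.0560), the second of which passed without brown day 7 array 08 (0.77, 0.0189) or white day 7 array 35 (0.73, 0.0223), with quantile normalization (0.67, 0.0325), with array weights (0.52, 0.0416) and with a floor at the 40th percentile (0.60, 0.0456). The brown change minus the white change was 1.07 ± 0.32, the smallest unadjusted p of the members (0.00224), with an adjusted p of 0.194.

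Vegfd, the other VEGFR3 ligand, formerly Figf, showed the widest gap between fat types of the 8 probe sets (92365_at). Signals on brown day 4 arrays 05, 06, 09, 10 and 19 were 263, 214, 247, 266 and 458, and on brown day 7 arrays 07, 08, 11, 12 and 22 they were 198, 177, 229, 222 and 162. White day 4 arrays ran from 826 to 1442 with a median of 1090, and white day 7 arrays from 925 to 1512 with a median of 1148. Every white array lay above every brown array, also white day 4 arrays 45 and 51, at 902 and 1239. Vegfd was lower in brown cells on both days, with a brown minus white difference of -1.95 ± 0.17 at day 4, a fold of 3.88 (adjusted p = 1.72e-09), and of -2.59 ± 0.18 at day 7, a fold of 6.01 (adjusted p = 4.93e-11). These ranked 28 and 6 of the 8397 probe sets by p-value. Over the fits that left out 1 array the differences ran from -2.13 to -1.86 at day 4 and from -2.66 to -2.52 at day 7.

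In cultures of mixed cells, fewer cells of a type and less RNA per cell cannot be told apart, and this holds for Vegfd and for every result here. From day 4 to day 7 Vegfd in brown cells differed by -0.51 ± 0.19 (adjusted p = 0.0726). Brown day 4 array 19, at 458, stood apart from its group, and without it the difference was -0.33 (adjusted p = 0.255), while without array 06 it passed at -0.61 (0.0365). It also passed with runs of array numbers as a random block (-0.51, adjusted p = 0.0381) and with the 3′ over 5′ signal ratio of Gapdh, a measure of RNA quality, as covariate (-0.52, 0.0390). Within brown runs the differences were -0.34, -0.18 and -1.50, the last from arrays 19 and 22 alone. White cells gave 0.12 ± 0.16, and the brown minus white difference of changes was -0.63 ± 0.24 (unadjusted p = 0.0151, adjusted 0.427).

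**Figure D2:**
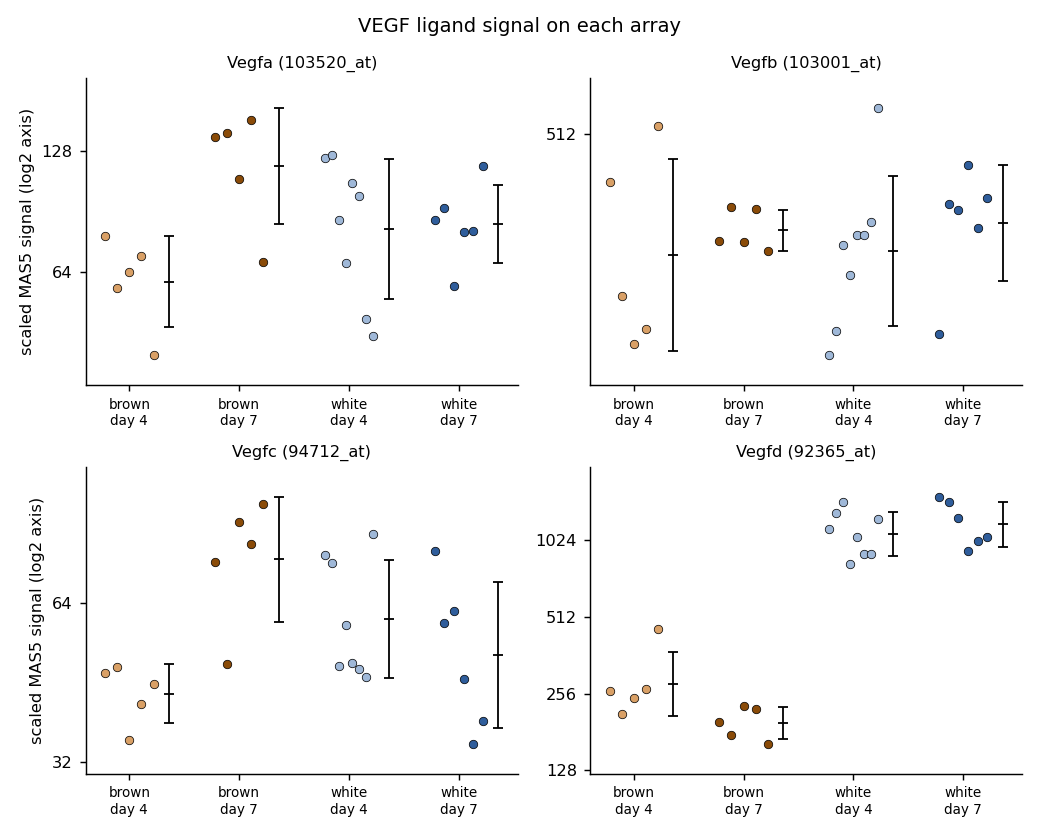
Scaled MAS5 signal of the 4 ligand genes on each array (points, log2 axis, values under the floor set to it), with the mean and SD of log2 signal beside each group of 5, 5, 8 and 6 arrays. Vegfd is the ligand whose brown (162 to 458) and white (826 to 1512) arrays do not overlap, and the Vegfc brown day 7 arrays (49.1 to 98.4) lie above brown day 4 (35.3 to 48.3).

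Flt1, the gene of VEGFR1, gave low signal on most arrays (probe set 98452_at). Brown day 4 arrays 05, 06, 09, 10 and 19 read 29.7, 5.21, 19.7, 12.4 and 14.0, and brown day 7 arrays 07, 08, 11, 12 and 22 read 18.4, 25.9, 5.59, 23.1 and 29.1. White day 4 arrays ran from 3.27 to 30.9 with a median of 19.4, and white day 7 arrays from 31.5 to 59.9 with a median of 48.1. All 6 white day 7 arrays lay above every other array. The floor was reached on 1 brown day 4, 1 brown day 7 and 2 white day 4 arrays, the last being 45 and 51, so the sizes of the differences depend on it. Flt1 rose in white cells by 1.38 ± 0.35, or 2.60-fold (adjusted p = 0.00691), and the difference was 0.62 with a floor at the 40th percentile (adjusted p = 2.40e-04). At day 7 it was lower in brown cells, at -1.22 ± 0.39 for brown minus white (adjusted p = 0.0223), a call lost without brown day 7 array 11 (-0.91, 0.0896), with no floor (-1.33, 0.0688) and with runs of array numbers as a random block (-1.07, 0.0908).

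The probe set was above the 40th percentile of its own array on all 6 white day 7 arrays and on 2 of the other 18, so it passed the filter through the group where it was high. The white day 7 arrays also differed in the 3′ over 5′ signal ratio of Gapdh, a measure of RNA quality, whose mean was 1.36 ± 0.204 (SD, n = 6). In white day 4 arrays it was 0.943 ± 0.0955 (SD, n = 8), and in brown cells 0.884 ± 0.0825 (SD, n = 5) on day 4 and 0.889 ± 0.0379 (SD, n = 5) on day 7. With this ratio as covariate, the Flt1 differences were 0.94 in white cells (adjusted p = 0.560) and -0.71 at day 7 (0.675). Over all 8397 probe sets this covariate took the number of calls from 1595 to 37 in white cells and from 2112 to 274 at day 7, so few probe sets of any kind passed under it. The ratio ran from 1.09 to 1.54 on white day 7 and from 0.841 to 1.10 on white day 4 arrays. It and the white day 7 group can thus hardly be told apart. Flt1 did not pass in brown cells over time (0.33 ± 0.41, adjusted p = 0.676) or between fat types at day 4 (-0.17 ± 0.37, 0.789). Within the white runs the rise was 1.32, 1.27 and 0.47. The second Flt1 probe set, 98453_at, did not pass the filter, and on white day 7 it read 58.5 on array 40 and 9.41 to 14.2 on the other 5, so it did not show the rise on every array.

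Flt4, the gene of VEGFR3, the receptor for VEGF-C and VEGF-D, was also low (probe set 104417_at). Brown day 4 arrays 05, 06, 09, 10 and 19 spread widely, at 17.7, 6.09, 30.9, 40.2 and 56.6, while brown day 7 arrays 07, 08, 11, 12 and 22 were closer, at 58.4, 55.6, 39.1, 49.3 and 37.7. White arrays ran from 11 to 45.8 (median 21.4) at day 4 and from 8.65 to 34.6 (median 21.7) at day 7. At day 7 every brown array lay above every white array, and at day 4 the fat types overlapped. Flt4 was higher in brown cells at day 7 by 1.36 ± 0.44, or 2.56-fold (adjusted p = 0.0241). The call was lost without brown day 7 array 07 (1.28, adjusted p = 0.0581) or 08 (1.30, 0.0536), without white day 7 array 40 (1.20, 0.0589) or 43 (1.14, 0.0617), with the Gapdh ratio as a covariate (2.26, 0.0932) and with runs as a block (1.36, 0.0602). With a floor at the 40th percentile the difference was 0.66 (adjusted p = 0.00419).

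Flt4 differed in brown cells from day 4 to day 7 by 0.91 ± 0.46 (adjusted p = 0.221). The 3 runs gave 2.24, 0.32 and -0.59, with no common direction, the last from arrays 19 and 22 alone. White cells gave -0.34 ± 0.39 (adjusted p = 0.597) and day 4 brown minus white 0.11 ± 0.41 (0.885). The difference of the changes was 1.24 ± 0.60 (unadjusted p = 0.0496, adjusted 0.622). The second Flt4 probe set, 104416_at, ran from 1.48 to 26.4 over all arrays and was at the floor on 5 of 5 brown day 4, 3 of 5 brown day 7, 2 of 8 white day 4 and 4 of 6 white day 7 arrays, and it was not tested. The Flt4 difference thus rests on a single probe set.

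Nrp1, the gene of the co-receptor neuropilin-1, was read by 2 tested probe sets that differed in the size of the gap between fat types. On 95016_at the brown day 4 arrays 05, 06, 09, 10 and 19 gave 105, 84.5, 96.1, 86.5 and 201, and brown day 7 arrays 07, 08, 11, 12 and 22 gave 126, 85.4, 146, 148 and 199. White day 4 arrays ran from 208 to 664 with a median of 402, and white day 7 arrays from 399 to 655 with a median of 510. Brown and white arrays did not overlap on either day, although the lowest white day 4 arrays, 45 and 51 at 208 and 252, came near brown array 19. This probe set was lower in brown cells, with a brown minus white difference of -1.90 ± 0.26 at day 4, a fold of 3.72 (adjusted p = 7.93e-06), and of -1.86 ± 0.28 at day 7, a fold of 3.63 (adjusted p = 2.00e-05). Leaving out 1 array gave -2.12 to -1.79 at day 4 and -2.0 to -1.69 at day 7, and the calls held. With the Gapdh ratio as covariate, the difference at day 7 was -0.80 (adjusted p = 0.356), whereas that of Vegfd was -1.98 (5.95e-05).

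On the other Nrp1 probe set, 92773_at, brown day 4 arrays 05, 06, 09, 10 and 19 gave 180, 93.2, 119, 142 and 74.6, and brown day 7 arrays 07, 08, 11, 12 and 22 gave 153, 125, 171, 175 and 126. White arrays ran from 98.9 to 315 (median 179) at day 4 and from 119 to 269 (median 214) at day 7, overlapping the brown arrays on both days. Brown minus white was -0.68 ± 0.27 at day 4 (adjusted p = 0.0685) and -0.39 ± 0.28 at day 7 (0.343), the same sign as the other probe set without passing. The day 4 difference passed without white day 4 arrays 45 and 51 (-0.94, adjusted p = 0.00583), with array weights (-0.69, 0.0328), with quantile normalization (-0.69, 0.0468), and without brown array 05 or white array 42, 45 or 51 alone (adjusted p from 0.0215). Over the 24 arrays the 2 probe sets correlated at r = 0.659, and at 0.557 within groups. Neither changed past the threshold from day 4 to day 7 in brown cells (0.36 ± 0.30 and 0.33 ± 0.29 for 92773_at and 95016_at, adjusted p = 0.498 and 0.534) or in white cells (0.07 ± 0.25 and 0.29 ± 0.25, adjusted p = 0.878 and 0.454).

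**Figure D3:**
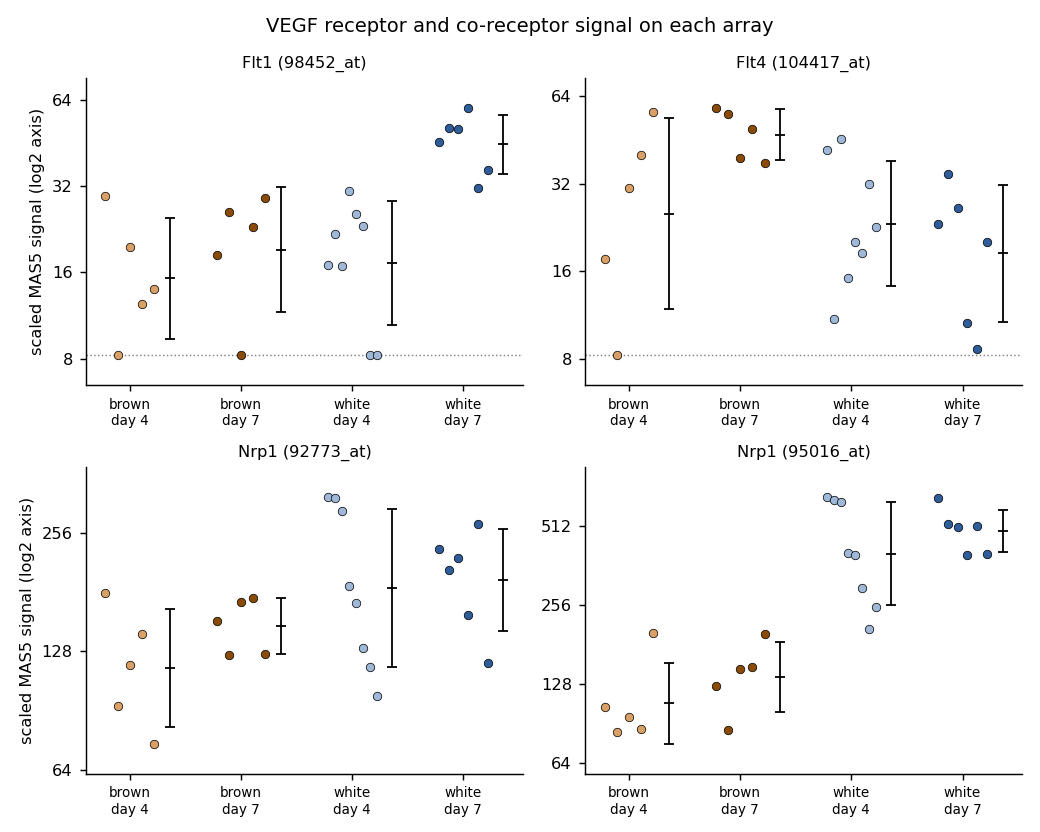
Scaled MAS5 signal of the receptor and co-receptor probe sets on each array (points, log2 axis), with the mean and SD of log2 signal beside each group, and the floor of 8.21 as a dotted line where signals come near it. White day 7 arrays of Flt1 (31.5 to 59.9) lie above all others, and the brown arrays of Nrp1 95016_at (84.5 to 201) lie below all white arrays (208 to 664).

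By group mean of log2 signal the order of the 4 groups differed between members. Vegfa was highest in brown day 7 (6.88) and lowest in brown day 4 (5.92), with the white groups between at 6.36 (day 4) and 6.4 (day 7), and neighbours in this order did not differ past the threshold. Vegfc ran from brown day 7 (6.27) through white day 4 (5.90) and white day 7 (5.67) to brown day 4 (5.43). Of its neighbours the white groups did not pass, and the other pairs were not compared. Vegfb spanned only 8.53 to 8.65. Vegfd and Nrp1 95016_at were highest in white day 7 (10.2 and 8.94) and white day 4 (10.1 and 8.65), which did not differ past the threshold, and far lower in both brown groups. Nrp1 92773_at had the same 2 groups on top (7.60 and 7.53), ahead of brown day 7 (7.21) and brown day 4 (6.86). Flt1 had white day 7 (5.49) above the other 3 groups (3.93 to 4.26), and Flt4 had brown day 7 (5.56) above brown day 4 (4.66), white day 4 (4.54) and white day 7 (4.21), with no neighbours of Flt4 passing.

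None of the 7 genes passed the test of the brown change minus the white change by limma, against 0.214% of all probe sets (18 of 8397). At an unadjusted p under 0.05 there were 4 of the 7, Vegfa, Vegfc, Vegfd and Flt4, against 670 of the 8397 probe sets. No other setting called a member in this test.

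**Figure D4:**
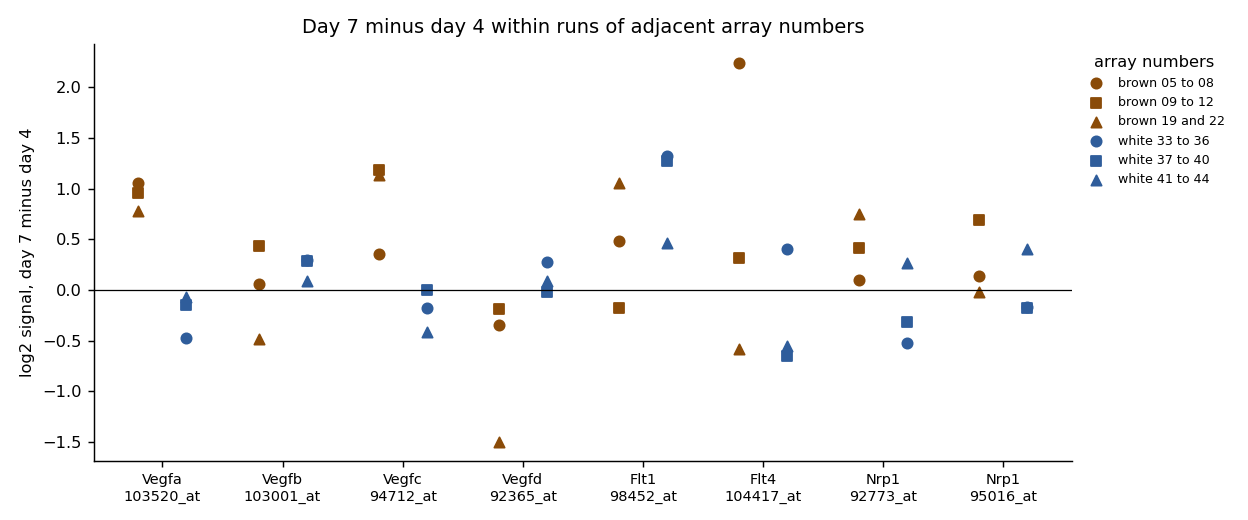
Day 7 minus day 4 (log2 signal) within each run of array numbers, with brown runs 05 to 08, 09 to 12 and 19 and 22 in brown and white runs 33 to 36, 37 to 40 and 41 to 44 in blue. Arrays 19 and 22 are not adjacent and give 1 array per day. The brown runs lie above 0 for Vegfa (0.78 to 1.06) and Vegfc (0.36 to 1.19) and on both sides of 0 for Flt4 (-0.59 to 2.24).

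The receptors were set beside endothelial markers, since VEGF receptors are known mainly from those cells. Of 29 listed markers, 14 were tested, and 10 of them, among them Cdh5, Tie1, Emcn, Cldn5 and Icam2, were higher in brown cells at day 4 and also at day 7, with none lower. Over all probe sets 10.8% and 12.8% were higher. Median differences of the 14 were 1.17 and 2.34, against 0.01 and 0.00 over all probe sets tested. Icam2, Rasip1 and Tie1 lay near the floor on white arrays. Their white medians were 8.21, 17.8 and 14.6 at day 4 and 8.21, 8.21 and 11.2 at day 7. These 3 thus passed the filter mainly through the brown arrays, where they were high, and their sizes depend on the floor. Summed signal of the 14 was 2376 to 3784 on brown day 4 and 2631 to 3494 on brown day 7 arrays, against 1649 to 2568 and 1607 to 2061 on white day 4 and white day 7 arrays. Eng weighs most in these sums, with medians of 1367, 967, 1207 and 1254 in the same order. Flt4 at day 7 lay on the same side as these markers, Flt1 at day 7 and Nrp1 95016_at on both days on the other, and Pecam1, Eng, Lmo2 and Kdr did not pass on either day. Medians of Pecam1, in the order used for Eng, were 52.8, 57.8, 59.9 and 83.9, lower in brown cells on both days. Those of Lmo2 were 95.3, 101, 108 and 79.9. Among markers not tested, Ptprb was at the floor on every array. Vwf was there on 4 of 5 arrays of each brown group, 7 of 8 white day 4 and 3 of 6 white day 7. Nos3 had medians of 8.21, 44.9, 8.21 and 8.21. The part of endothelial cells in the Flt4 difference was not tested. Of the lymphatic markers 3 of 7 were tested, with Thy1 higher and Pdpn lower in brown cells on both days, and Lyve1 and Prox1 did not pass the filter. Prox1, the defining factor of lymphatic endothelium, was at the floor on 5 of 5 arrays of each brown group, 7 of 8 white day 4 and 5 of 6 white day 7 arrays.

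**Figure D5:**
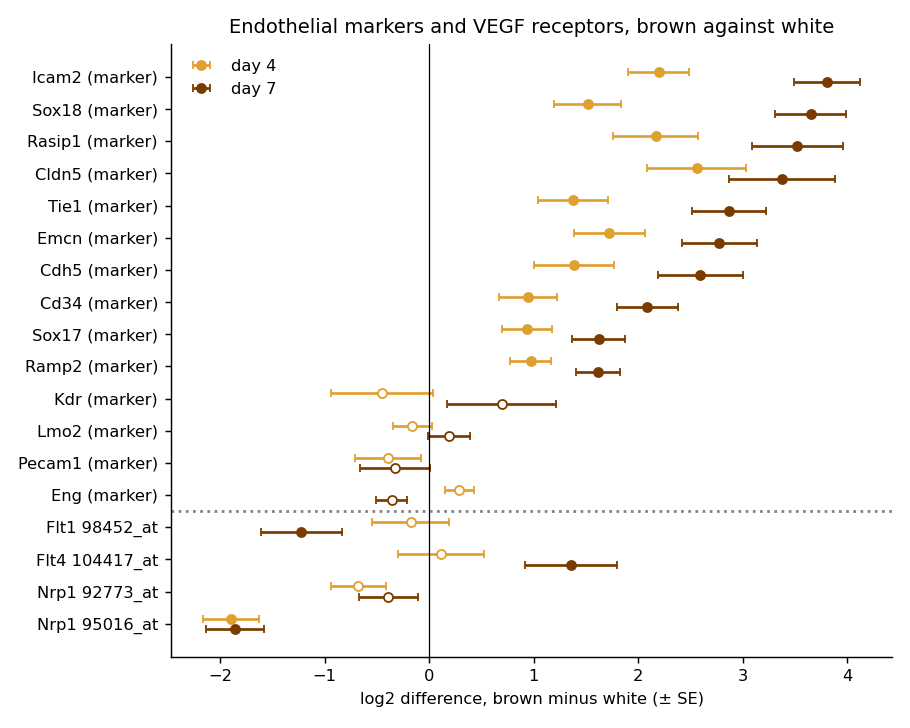
Log2 difference, brown minus white, ± SE at day 4 (light) and day 7 (dark) for the 14 tested endothelial markers above the dotted line and the receptor and co-receptor probe sets under it, filled where the adjusted p was under 0.05. The marker median is 1.17 at day 4 and 2.34 at day 7, while Nrp1 95016_at lies at -1.90 and -1.86.

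Markers of other cells also moved with some comparisons. Shares over all probe sets were 10.8% higher and 12.2% lower for brown against white at day 4, and 12.8% and 12.3% at day 7. From day 4 to day 7 they were 6% higher and 6.05% lower in brown cells, and 8.36% and 10.6% in white cells. Over the same days, endothelial markers had 2 higher and 1 lower in brown cells, and 2 lower in white cells. Macrophage markers (12 of 19 tested) had 3 lower in brown cells at day 4 and 6 at day 7, with none higher. From day 4 to day 7 they had 1 higher in brown and 3 higher in white cells, with none lower. Their summed signal was 607 to 717 on brown day 4, 719 to 1021 on brown day 7, 706 to 2090 on white day 4 and 987 to 1674 on white day 7 arrays. Pericyte and smooth muscle markers (11 of 13 tested) had 4 lower at day 4, and 4 higher and 5 lower at day 7 in brown cells. Over time 4 were higher in brown and 3 in white cells, with none lower. Adipocyte markers (12 of 14 tested) had 5 higher at day 7 than at day 4 in brown and 9 in white cells, with none lower. Between fat types, 3 were higher and 2 lower in brown cells at day 4, and 1 higher and 3 lower at day 7. Of 11 brown fat markers 6 were tested, 5 of them higher in brown than in white cells on each day, and Ucp1, on the array but not tested, had medians of 19.4 on brown day 4, 53.1 on brown day 7 and 9.95 on white day 7 arrays. The part of these cell types in the Vegfd and Nrp1 differences was not tested.

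Among the other VEGF receptors and ligands and the semaphorins, 8 of 15 genes were tested. Kdr, the gene of VEGFR2, was low, with group medians of 15.8 and 33.8 for brown day 4 and day 7 and 21.5 and 13.7 for white day 4 and day 7. It passed in no comparison (0.71 ± 0.54 in brown and -0.44 ± 0.46 in white cells, -0.45 ± 0.49 and 0.69 ± 0.52 for brown minus white at day 4 and day 7, adjusted p = 0.454, 0.554, 0.553 and 0.357). Pgf, the gene of placental growth factor, another VEGFR1 ligand, had medians of 66.6, 90.9, 56.6 and 48.9 in the same order, and was higher in brown cells at day 7 by 1.14 ± 0.26 (adjusted p = 0.00203). Pgf did not pass in brown cells (0.64 ± 0.27, adjusted p = 0.134, but 0.0287 with array weights), in white cells (-0.04 ± 0.23) or between fat types at day 4 (0.46 ± 0.25). Sema3b, a semaphorin that binds neuropilins, rose in white cells by 2.05 ± 0.35 (adjusted p = 3.68e-04) and was lower in brown cells at day 7, at -2.59 ± 0.39 for brown minus white (2.28e-05). Its group medians, in the order used for Kdr, were 8.21, 9.07, 12.2 and 62.6, near the floor of 8.21 outside white day 7. Sema3b thus passed the filter mainly through the group where it was high, and its sizes depend on the floor. Over all settings its day 7 difference ran from -2.81 to -1.02. Nrp2 was not analysed here. None of these genes passed in brown cells over time or between fat types at day 4.

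Of the genes of low oxygen response and Vegfa induction, 15 of 21 were tested. Hif1a, which encodes an oxygen-regulated transcription factor, did not pass (0.41 ± 0.24 in brown and 0.47 ± 0.20 in white cells, -0.38 ± 0.21 and -0.44 ± 0.23 for brown minus white at day 4 and day 7). Its white difference passed with runs as a block (adjusted p = 0.0408) or without white day 4 array 33 (0.0425), that at day 4 without white array 42 (0.0179), and that at day 7 with only the compared arrays in the fit (0.00837). In brown cells 2 rose, its relative Epas1 by 0.96 ± 0.26 and the mitophagy gene Bnip3 by 1.01 ± 0.21. Epas1 did not pass in white cells (0.04 ± 0.22) or for brown minus white at day 4 (-0.58 ± 0.23, adjusted p = 0.0753) and day 7 (0.34 ± 0.25). At day 4 it passed with the Gapdh covariate (0.0127) and without brown array 06 (0.0226) or 10 (0.0265) or white array 41 (0.0452). In white cells Bnip3 rose by 0.67, and 3 fell, Adm (-0.84), Arnt (-0.91) and P4ha2 (-0.46). At day 4 brown cells were higher in Bnip3 (0.68) and the glycolysis genes Ldha (0.67) and Pgk1 (0.78), and lower in Adm (-0.56) and the collagen prolyl hydroxylases P4ha1 (-0.95) and P4ha2 (-0.64). At day 7 they were higher in Bnip3 (1.02), Ldha (0.59), Pgk1 (0.85), Arnt (0.89) and Esrra (0.81), and lower in P4ha1 (-0.65) and Egln2 (-0.29). The list thus had members on both sides in each comparison of fat types, and its median differences were -0.18 at day 4 and 0.34 at day 7.

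Of 32 genes of VEGF receptor signal transduction, 19 were tested and few passed. In brown cells the kinase subunit genes Pik3ca (0.97) and Pik3r1 (0.79) rose and Prkcb fell (-1.15), and in white cells Gipc1 fell (-0.33). Brown cells were lower in the calcineurin gene Ppp3ca on both days (-1.31 and -1.07) and in Prkcb at day 7 (-1.16). Both Prkcb calls were lost with a floor at the 40th percentile (adjusted p = 0.297 in brown cells and 0.15 at day 7).

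Of 33 other vessel-acting ligands and inhibitors, 19 were tested. In brown cells 5 rose, Thbs2 (2.21), Mdk (1.42), Timp3 (1.19), Cxcl12 (0.81) and Sparc (0.33), and the vasoconstrictor gene Edn1 fell (-0.68). In white cells 5 rose, Thbs2 (1.85), Ccn2 (0.92), Mdk (0.85), Pdgfa (0.59) and Sparc (0.36). At day 4 brown cells were higher in Angpt2 (1.32), a Tie2 ligand, Tgfb1 (1.54) and Angptl4 (0.84), and lower in Cxcl12 (-1.33), Mdk (-1.08), Thbs2 (-0.96), Efnb2 (-0.70) and Sparc (-0.39). At day 7 they were higher in Angpt2 (2.21), Tgfb1 (2.02), Angpt1 (1.05), Timp3 (0.99), Angptl4 (0.95) and Col18a1 (0.76), and lower in Pdgfa (-0.64), Cxcl12 (-0.59) and Sparc (-0.42). Thbs2, an inhibitor of vessel growth, passed in 3 of the 4 comparisons. Tgfb1 was at the floor on 4 white day 4 arrays, and its day 4 difference ran from 0.47 to 1.89 over the settings, with the call kept. The Angpt1 call at day 7 was lost with no floor (adjusted p = 0.0881).

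Over the 4 pathway lists, leaving out some 1 array ended 7 of 11 calls in brown cells (Edn1, Epas1, Pik3ca, Pik3r1, Prkcb, Sparc and Timp3, adjusted p up to 0.172) and 3 of 11 in white cells (Ccn2, Gipc1 and P4ha2, up to 0.0905). It ended 4 of 15 at day 4 (Adm, Bnip3, Efnb2 and Thbs2, up to 0.121) and 5 of 20 at day 7 (Angpt1, Cxcl12, Egln2, P4ha1 and Timp3, up to 0.124). With the Gapdh ratio as covariate, 10 of 11 calls were lost in white cells and 16 of 20 at day 7, beside the loss over all probe sets given with Flt1, and 1 of 11 (Edn1) in brown cells and none at day 4. Sema3b, Angpt2, Angptl4 and Col18a1 kept their calls between fat types at day 7 with it, and Mdk kept its call in white cells.

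The genes with the log2 signal most like each member over the 24 arrays were named by Pearson's r, as a description of arrays that fall into 4 groups. For Vegfd they were Adgrd1 (0.973), Rspo1 (0.969) and Tcf21 (0.968), and for Nrp1 95016_at Arid2 (0.964), Zbtb20 (0.949) and Nfib (0.942). Vegfd and Nrp1 95016_at correlated with each other at 0.901, and at 0.602 within groups. Brown day 4 array 19 stood high in its group on both (458 and 201), and r was not computed without it. For Nrp1 92773_at the nearest were Il6st (0.861), Ttc3 (0.856) and Adam9 (0.846). Vegfa lay nearest to Fnbp4 (0.819), Ccnl2 (0.803) and Rnf14 (0.800), Vegfb to 1810058I24Rik (0.753), Bri3 (0.737) and Gga2 (0.725), and Vegfc to Vcam1 (0.699), Tlx2 (0.634) and Ube2a (0.630). Flt1 lay nearest to Fabp4 (0.812), Ptger3 (0.798) and Pdgfa (0.791), and Flt4 to Bcl6b (0.725), Spata13 (0.715) and Ets2 (0.698). The likeness was closest for Vegfd and Nrp1 95016_at, the members that separated the fat types, and loosest for Vegfc and Flt4.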

How the data were processed

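The authors deposited linear MAS5 signal intensity values (MAS5 per the submitters' processing notes), 1 value per probe set and array, with the MAS5 version not given in the sources used here. Per the labels' protocols, biotin-labelled cRNA came from a single round on Trizol RNA. Each array was rescaled to a 2% trimmed mean of 150, values under the 20th percentile (8.21) were raised to it, and log2 was taken. A probe set was tested where it exceeded the 40th percentile within an array on 5 arrays or more. Without 66 controls this left 8397, with 1.56% of values at the floor. MAS5 subtracts mismatch signal, so low values are noisy, and the number of arrays limits the precision. The median signal of an array was 41.9 to 59.0. In the platform annotation 10855 probe sets have 1 symbol, 396 several and 1237 none, and only the first were named.

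Means of the 4 groups were fitted over all 24 arrays in limma 3.58.1 under R 4.3.3 (lmFit, then eBayes with trend), a script tested on simulated data. Tests were two-sided, with 20 residual degrees of freedom and Benjamini-Hochberg adjustment within a comparison. Every member probe set is named. Of the pathway lists (VEGF and semaphorin genes, low oxygen response, signal transduction, other vessel-acting genes), those past the threshold are named, with Kdr, Nrp2, Pgf, Hif1a and Epas1. Marker lists (endothelial, lymphatic, pericyte, macrophage, adipocyte, brown fat) are counted, and the 3 genes most correlated with each member are given. Members and lists were chosen with earlier results of these data known. Promoters are from RefSeq. Alternatives changed the floor, filter, scaling, pseudocount, weights, spread estimate, covariates and arrays used.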

Additional observations from a re-analysis of the deposited data

Results flagged for a closer look

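A single array stood apart from its group in 5 of the 40 combinations of member probe set and group, where chance gives about 1 in 20. Vegfd on brown day 4 array 19 read 458 (the others 214 to 266), and Nrp1 95016_at on the same array read 201 (the others 84.5 to 105). Vegfb on white day 7 array 35 read 298, the lowest of its group. The untested Flt1 probe set 98453_at read 58.5 on white day 7 array 40, the highest, and 8.92 on brown day 7 array 07, the lowest of its group.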

How the results depend on the processing

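There were 24 fits without 1 array and 13 other settings. Each member result was recomputed without each array of the groups it compares, and under the settings that applied to it. Of 213 alternative values for the 9 called results, 195 kept the call, 18 lost it and 0 changed sign. The count of member genes in brown cells, 2, ran from 0 to 3 without 1 array, and was 3 with the Gapdh covariate and with runs as a block. The count in white cells, 1, was 0 with the stricter filter (12 arrays), which leaves Flt1 out, and 0 with the Gapdh covariate. At day 7 the count, 4, was 1 with the Gapdh covariate and 2 with runs as a block, but 5 with quantile normalization or a floor at the 40th percentile and 6 with array weights, and ran from 3 to 5 without 1 array. Over all 8397 probe sets the Gapdh covariate took the calls from 1595 to 37 in white cells and from 2112 to 274 at day 7. The other causes were not tested. No paired analysis was made because the labels name no pairs of arrays. The runs of array numbers, whose meaning is not stated, were fitted only as a random block.

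Values that changed sign were all uncalled. With the Gapdh covariate they were, in white cells, -0.69 for Nrp1 92773_at, -0.63 for Nrp1 95016_at, -0.033 for Vegfa and -0.40 for Vegfd, and 0.49 for Nrp1 92773_at at day 7. Without white day 4 arrays 45 and 51 they were -0.19 for Nrp1 92773_at and -0.23 for Vegfa in white cells and 0.095 for Vegfb at day 4. With array weights they were -0.028 for Nrp1 92773_at and -0.046 for Vegfa in white cells, -0.058 for Flt4 at day 4, 0.019 for Vegfb at day 7 and 0.049 for Vegfb between the changes. With quantile normalization they were -0.009 for Vegfa in white cells, 0.0007 for Flt1 at day 4 and 0.005 for Vegfb between the changes. Runs as a block gave -0.024 for Vegfa in white cells, and a floor at the 40th percentile gave -0.0058 for Flt1 in brown cells. Without 1 array, uncalled values ran from -0.41 to 0.049 (Flt1) and from -0.18 to 0.52 (Flt4) at day 4, and for Vegfb from -0.14 to 0.069 at day 4, -0.12 to 0.017 at day 7 and -0.098 to 0.12 between the changes. Those in white cells ran from -0.059 to 0.21 (Nrp1 92773_at) and -0.086 to 0.14 (Vegfa), and that of Nrp1 95016_at between the changes from -0.10 to 0.26. The same alternatives were computed for the other pathway genes, a choice made after seeing the data. Of these, Epas1 changed sign with quantile normalization in white cells (-0.014) and with the Gapdh covariate at day 7 (-0.61), and ran from -0.042 to 0.096 in white cells without 1 array. Pgf in white cells was 0.0094 with array weights and 0.11 without arrays 45 and 51, and ran from -0.16 to 0.052 without 1 array.

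Signal near the floor limits Flt1, Flt4 and Kdr, and among the other pathway genes Sema3b, Tgfb1, Prkcb and Angpt1. It also limits the endothelial markers Icam2, Rasip1 and Tie1. Their sizes depend on the floor. Vegfd at both days and Nrp1 95016_at at day 4 passed in every setting run.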
